A study of Homo sapiens with 11 samples.

Results

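The genes described here are the 64 genes of RT4 cells whose transcript level was low during nickel exposure and was still low 2 weeks after nickel was removed. RT4 is a human cell line from a non-invasive, well-differentiated bladder cancer, and it was compared in 3 states with 2 RNA-Seq replicates each. UT cells were untreated, Ni-E cells were kept in 100 µM NiCl2 for 6 weeks, and Ni-W cells had the same exposure followed by 2 weeks of culture in medium without nickel. The study asked which expression changes outlast the exposure, and it also profiled H3K4me3 by ChIP-Seq in BEAS-2B, an immortalized line of human bronchial epithelial cells, with 1 library for each state. The labels name 2 weeks without nickel for both lines, and for BEAS-2B also 1 population, grown from a single colony and over 6 months without nickel, that was examined in detail. The BEAS-2B Ni-W cells are taken here to be that population, so that they differ from RT4 Ni-W cells both in how they were isolated and in time.

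Genes were chosen from TPM, a relative transcript level that is corrected for gene length and depth. After 0.5 was added to every TPM, each Ni-E and Ni-W value was divided by the UT value with the same replicate number, and a gene was taken when all 4 ratios were 0.5 or less and its mean UT level was at least 2 TPM. Of 28252 genes listed, 11947 had that UT level and 64 of these (0.536%) met the rule. The Ni-E ratios alone were 0.5 or less in both replicates for 191 genes, of which the 64 make up 33.5%, and the Ni-W ratios alone for 95 genes, of which they make up 67.4%. Because the values in Ni-E and Ni-W relative to UT chose the genes, these values are given as a description and without a test. Fewer cells with a transcript and less transcript per cell cannot be told apart in RNA from whole cultures.

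Nickel compounds are human carcinogens that are weak mutagens and are known to change chromatin. The urothelium, the lining of the bladder, is layered, and its surface cells carry uroplakins and keratin 20, while keratin 13 marks the layers beneath. H3K4me3, the trimethylation of lysine 4 of histone H3, marks the promoters of active genes and is scarce at promoters that a cell type does not use.

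The 6 RNA-Seq libraries held 17075833 to 27736454 estimated counts. All 10 urothelial and epithelial markers examined were above 1 TPM in every library, whereas summed levels of 6 fibroblast markers were at most 5.21 TPM, of 6 leukocyte markers at most 0.81 TPM and of 4 endothelial markers at most 1.90 TPM. The replicates differed in a way that followed transcript length. Among genes with at least 2 TPM, the median of UT replicate 1 over UT replicate 2 was 0.874 for those under 1500 nt and 1.51 for those of 5000 nt or more. The chosen genes showed the same, with medians of 0.936 for 26 short genes and 1.94 for 9 long genes. The study's methods call the RNA of each state 2 biological replicates, the labels tell them apart only by a suffix, and p-values measure the spread between these 2 libraries.

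The share of the UT level left is given here as the geometric mean of the 2 ratios of TPM + 0.5, in which the added 0.5 raises the share of genes with few TPM. Over the 64 genes this share was between 3.98% and 48.7% in Ni-E cells, with a median of 24.3%, and between 4.60% and 49.4% in Ni-W cells, with a median of 34.4%. The 4.60% is that of SNORA7B, which had 1 count in each UT library, and SPINK4 with 11.8% was next. As the mean TPM over the mean UT TPM, with nothing added, the medians were 19.5% and 28.2%. Under 25% was left for 33 genes in Ni-E cells and for 20 genes in Ni-W cells. Both UT libraries lay above all 4 nickel libraries for 63 of the 64 genes, against 9.72% of all genes with at least 2 TPM in UT. The exception was SLC39A10, which codes for a zinc importer. Its TPM was 22.8 and 9.63 in UT, 6.62 and 4.49 in Ni-E and 11.01 and 3.11 in Ni-W cells, so that Ni-W replicate 1 was above UT replicate 2. The genes were mostly of moderate abundance, with a median of 8.25 TPM in UT cells beside 19.3 TPM for all genes of at least 2 TPM. By RefSeq, 56 are protein-coding, 4 are long noncoding RNAs, 3 are transcribed pseudogenes and 1 is a small nucleolar RNA.

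**Figure D1:**
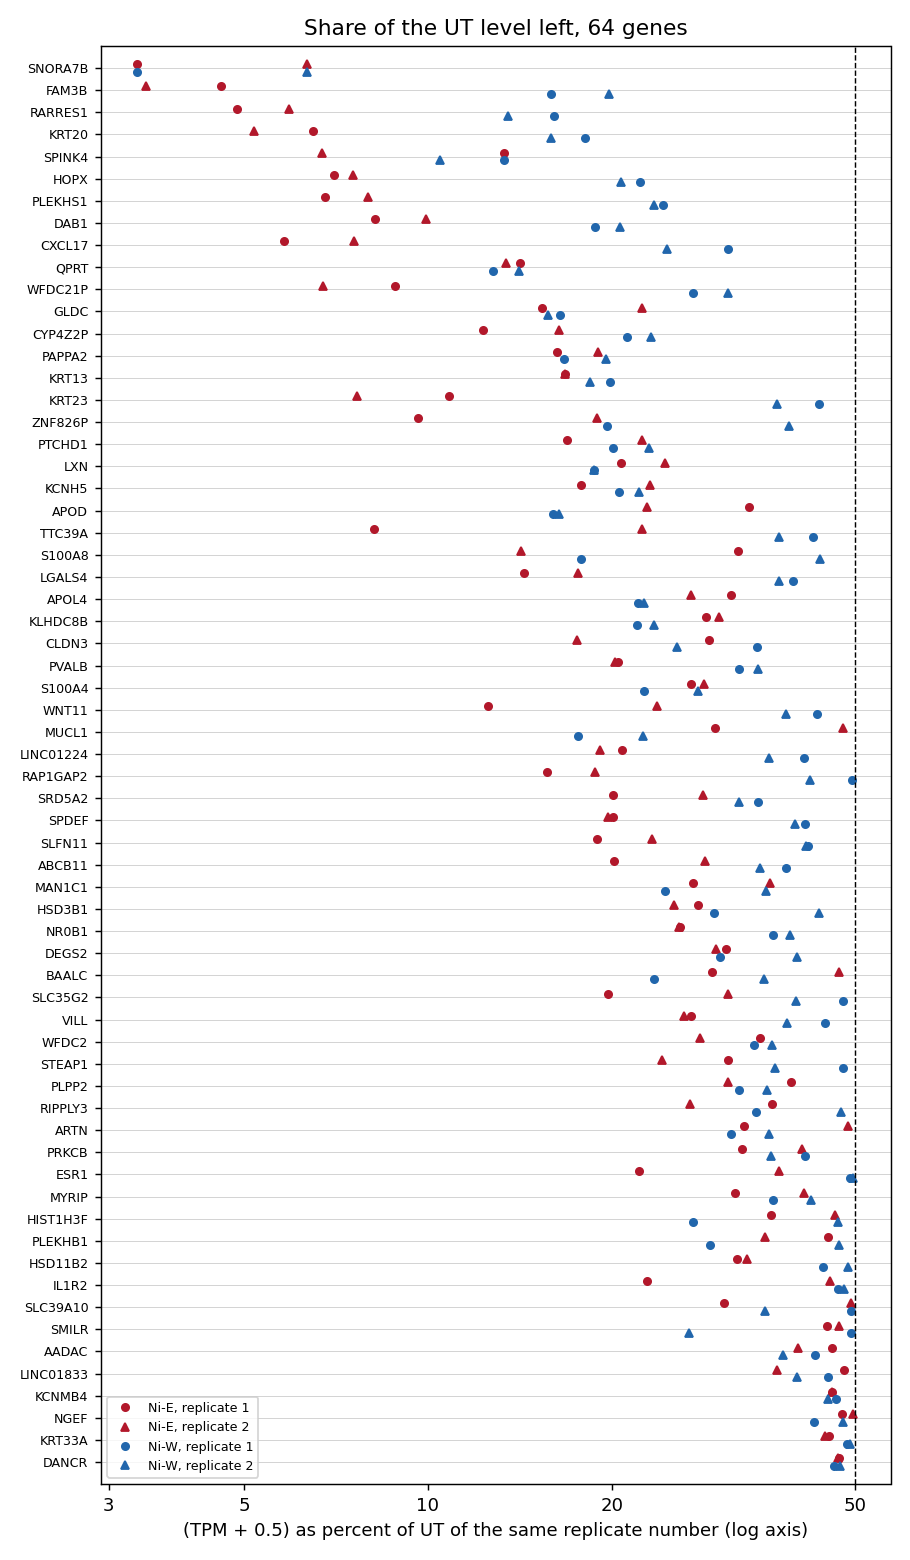
Percent of the UT level left in each nickel library for each of the 64 genes, as (TPM + 0.5) over that of the UT library with the same replicate number, on a log axis. Circles are replicate 1, triangles replicate 2, red Ni-E and blue Ni-W, genes are ordered by the mean of the 4 log ratios, and the dashed line at 50% is the limit of the rule. For most genes in the upper part of the plot the blue points lie to the right of the red ones, whereas for QPRT, GLDC, LXN and DANCR they lie close together.

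The count test, which takes no account of the replicate numbers, called part of the set. edgeR's quasi-likelihood test, with calls at a change of at least 1.5-fold and an adjusted p (Benjamini-Hochberg) below 0.05, could be run on 60 of the 64 genes and called 33 lower in Ni-E than in UT cells, where 0.71% of 14502 genes were called lower. It called 12 lower in Ni-W than in UT cells, where 0.0965% of all genes were. None was called higher in either comparison, where 1.45% (Ni-E) and 0.503% (Ni-W) of all genes were. The 12 were RARRES1, KRT20, HOPX, PLEKHS1, QPRT, GLDC, KRT13, LXN, APOL4, KLHDC8B, SRD5A2 and MAN1C1, and they are all among the 33. These contrasts were used by the rule, so nothing is read from the counts. Leaving out UT replicate 1 or 2 left fewer calls in Ni-E cells, with a median log2 fold change of the set of -2.36 or -2.44. Leaving out either Ni-E replicate left 0 calls among all genes, while the median log2 fold change of the set was -2.47 and -2.35 beside -2.35 with all libraries. In these fits the spread of the lone library is taken from the other groups. Leaving out any single library left at most 2 calls in Ni-W cells.

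The set holds 4 keratins and 4 other genes of epithelial differentiation and junctions, whose median share left in Ni-W cells was 35.04%, beside 34.4% for the whole set. KRT20, the keratin of urothelial surface cells, had 11.1 and 11.3 TPM in UT cells, 0.25 and 0.11 TPM in Ni-E cells and 1.59 and 1.37 TPM in Ni-W cells. The 3 states did not overlap. As mean TPM over mean UT TPM, 1.61% was left in Ni-E and 13.2% in Ni-W cells, and with 0.5 added the shares were 5.80% and 16.9%. KRT13, a keratin of the layers beneath, had 34.5 and 37.4 TPM in UT, 5.36 and 5.86 TPM in Ni-E and 6.45 and 6.48 TPM in Ni-W cells. Ni-W levels were close to those under nickel, with 16.8% and 19.1% of UT left. KRT23, an acidic keratin of simple and glandular epithelia, had 7.53 and 9.43 TPM in UT, 0.37 and 0.26 TPM in Ni-E and 3.01 and 3.20 TPM in Ni-W cells, or 3.71% and 36.6% of the mean UT TPM. KRT33A, a hair keratin with a near-identical neighbour, KRT33B, with which it may share reads, was close to the limit of the rule with 45.1% and 48.9% left. These 4 genes lie within the type I keratin cluster on chromosome 17 (GRCh38). KRT20 and KRT13, the outermost of the 4, are separated by 616 kb. Only 2 genes of at least 2 TPM lie between them, both of them from the set. These bounds are those of the 4 genes and not of the cluster.

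Most keratins are not in the set. Of 19 keratins examined, 14 were tested, and the 3 called lower in Ni-E than in UT cells were KRT13, KRT20 and KRT23, while none was called higher. In Ni-W cells KRT13 and KRT20 were called lower. The median log2 fold change of the list was -0.15 for Ni-E against UT and -0.02 for Ni-W against UT, beside -0.01 and 0.00 for all genes. Among 15 genes of urothelial differentiation, 2 were called lower in Ni-E cells, KRT20 and the uroplakin UPK1A, and 1, KRT20, in Ni-W cells. No uroplakin is in the set. For Ni-W against UT the log2 fold change was -1.02 for UPK1A, -0.01 for UPK1B and -0.36 for UPK2. It was 0.41 for UPK3A and 0.34 for UPK3B. The surface-cell markers on the list thus did not all stay low with KRT20. The list's median went from -0.61 to -0.01.

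HOPX, a small homeodomain protein without DNA binding of its own that marks differentiating epithelia, was the most abundant of the genes with under 10% left in Ni-E cells. It had 73.2 and 67.03 TPM in UT, 4.66 and 4.59 TPM in Ni-E and 15.9 and 13.5 TPM in Ni-W cells. SPDEF, an ETS factor of secretory epithelial cells, had 5.28 and 5.63 TPM in UT, 0.66 and 0.71 TPM in Ni-E and 1.90 and 1.95 TPM in Ni-W cells. CLDN3, a claudin of tight junctions, had 2.51 and 2.98, 0.37 and 0.11 and 0.54 and 0.39 TPM in the same order. Each of the 3 had its highest nickel library well under its lowest UT library. CLDN3 was the only gene of the set among 22 junction genes, of which 18 were tested and 2 were called lower in Ni-E cells and none in Ni-W cells. VILL, a relative of the actin-binding protein villin, kept 26.6% in Ni-E and 41.6% in Ni-W cells. In this group of 8 differentiation and junction genes, which was drawn up after the values were seen, Ni-W was above Ni-E in both replicates for all 8.

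Secreted and mucosal proteins formed the largest group, with 13 genes grouped after the values were seen. The group also takes in a pseudogene, WFDC21P, and a membrane protein, RARRES1. FAM3B, a secreted cytokine-like protein, had 12.6 and 15.7 TPM in UT, 0.10 and 0.06 TPM in Ni-E and 1.58 and 2.71 TPM in Ni-W cells, or 0.566% and 15.2% of the mean UT TPM. CXCL17, a mucosal chemokine, had 45.4 and 57.6 TPM in UT, 2.17 and 3.90 TPM in Ni-E and 13.7 and 13.8 TPM in Ni-W cells. Both genes were higher after washout than under nickel in both replicates, and the highest Ni-W value was far under the lowest UT value. WFDC21P, a transcribed pseudogene of the WAP-domain family, had 36.8 and 35.3 TPM in UT, 2.79 and 1.91 TPM in Ni-E and 9.62 and 10.6 TPM in Ni-W cells. WFDC2, an epithelial protein of the same family known as HE4, kept 31.2% and 35.4%. LGALS4, the gut galectin 4, kept 15.9% in Ni-E and 38.6% in Ni-W cells.

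RARRES1 and LXN are neighbours on chromosome 3, 24.2 kb apart and with no other gene of at least 2 TPM between them, and they code for related proteins, a retinoid-induced membrane protein and the carboxypeptidase inhibitor latexin. RARRES1 had 17.96 and 14.9 TPM in UT, 0.40 and 0.41 TPM in Ni-E and 2.47 and 1.58 TPM in Ni-W cells. LXN, the more abundant per length, had 126 and 134 TPM in UT, 25.8 and 32.3 TPM in Ni-E and 23.2 and 24.6 TPM in Ni-W cells. Of the mean UT TPM, RARRES1 kept 2.47% in Ni-E and 12.3% in Ni-W cells, and LXN kept 22.3% and 18.4%. Neither passed the test of Ni-W against Ni-E by edgeR with no block, with adjusted p of 0.210 for RARRES1 and 1.00 for LXN (0.0144 to 1.00 and 0.239 to 1.00 over the alternatives), and the difference between the pair was not tested. Each overlaps a gene on the opposite strand, MFSD1 and GFM1, and the library kit does not mark strand, so reads of the overlapping parts cannot be told apart. GFM1 had 27.2 and 12.7 TPM in UT, 21.8 and 13.9 TPM in Ni-E and 28.1 and 10.2 TPM in Ni-W cells, without the difference seen for LXN. APOD, the lipid carrier apolipoprotein D, was also lower after washout than under nickel, with 16.6 and 23.6 TPM in UT, 5.23 and 5.02 TPM in Ni-E and 2.24 and 3.46 TPM in Ni-W cells. The Ni-W libraries of APOD did not overlap those of Ni-E, with 13 and 39 counts in Ni-W beside 35 and 57 in Ni-E cells. Its log2 fold change of Ni-W over Ni-E was -0.80 ± 0.45 (SE) and was not called by edgeR. PAPPA2, a protease that cleaves IGF-binding proteins, kept 17.6% and 18.1%, and ARTN, a ligand of the GDNF family, kept 40.0% and 33.7%.

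**Figure D2:**
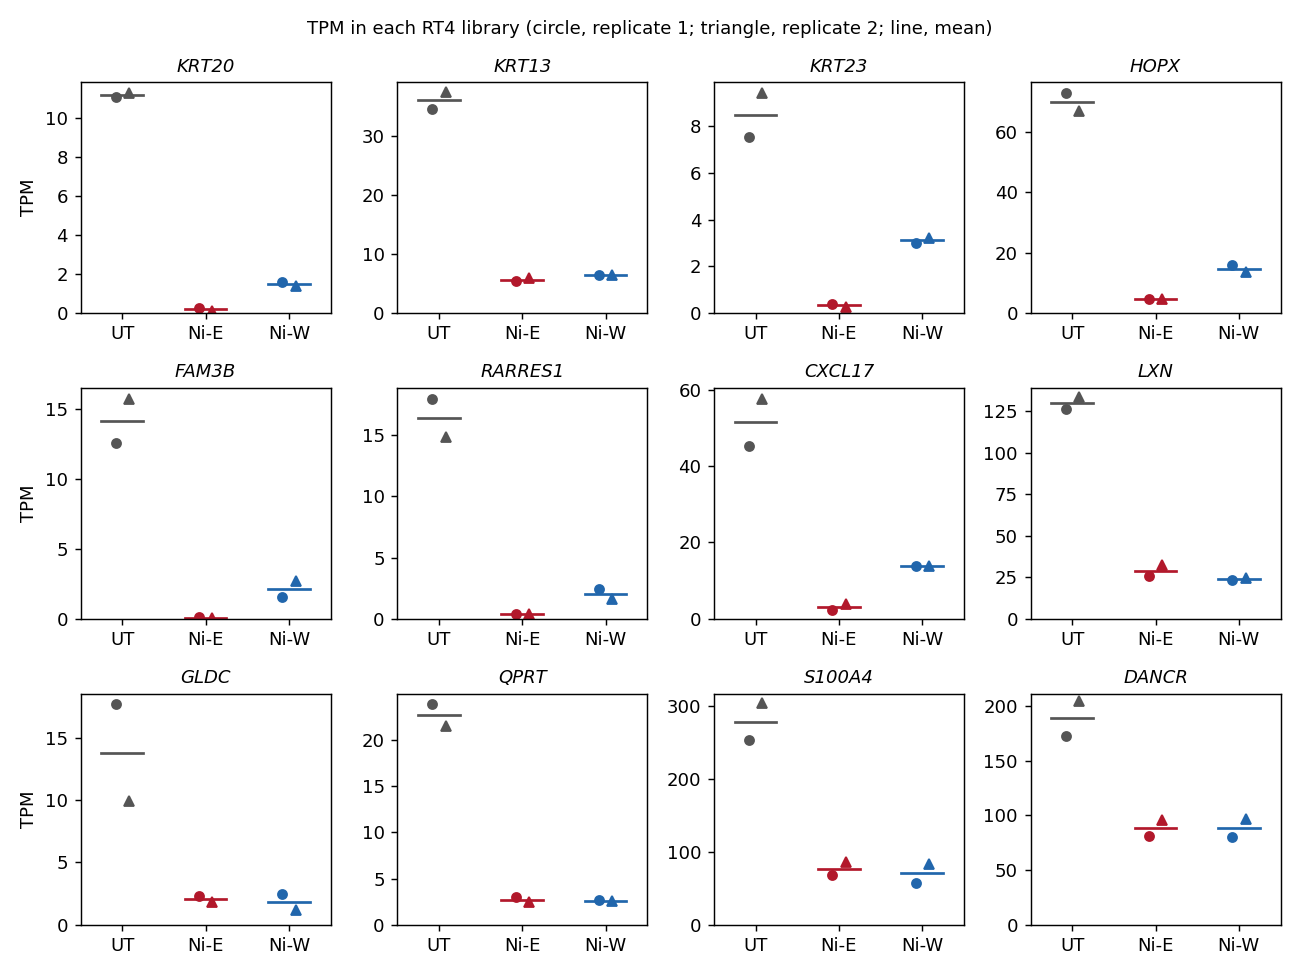
TPM in each RT4 library for 12 of the 64 genes, with UT in grey, Ni-E in red and Ni-W in blue, circles for replicate 1, triangles for replicate 2 and a line at the mean of each state. Every panel starts at 0. KRT20, KRT23, HOPX, FAM3B, RARRES1 and CXCL17 are higher in Ni-W than in Ni-E cells, whereas KRT13, LXN, GLDC, QPRT, S100A4 and DANCR show Ni-E and Ni-W levels close to each other, and all 12 stay under both UT libraries.

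Genes of steroid, bile and lipid handling made up 11 of the 64, again grouped after the values were seen. ESR1, the estrogen receptor alpha, was one of the genes just inside the limit, with 5.54 and 2.64 TPM in UT, 0.84 and 0.68 TPM in Ni-E and 2.47 and 1.06 TPM in Ni-W cells. NR0B1, the nuclear receptor DAX1 that represses steroid synthesis, had 33.1 and 36.97 TPM in UT, 8.20 and 9.16 TPM in Ni-E and 11.9 and 14.2 TPM in Ni-W cells. Ni-W cells were between the other 2 states for both genes, without overlap. Enzymes of steroid metabolism were in the set with them. HSD11B2, which inactivates cortisol, kept 32.7% in Ni-E and 46.5% in Ni-W cells, SRD5A2, a steroid 5-alpha reductase, kept 23.8% and 33.5%, and HSD3B1, a hydroxysteroid dehydrogenase, kept 26.5% and 35.9%. ABCB11, the bile salt export pump, kept 23.9% and 36.8%, CYP4Z2P, a transcribed pseudogene of a fatty acid hydroxylase that may share reads with its near-identical parent, kept 14.2% and 22.2%, and PLPP2, a lipid phosphate phosphatase, was among the 6 most abundant genes of the set and kept 34.9% and 34.1%.

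APOL4 was the only apolipoprotein L gene in the set. It had 6.84 and 4.99 TPM in UT, 1.80 and 0.98 TPM in Ni-E and 1.12 and 0.74 TPM in Ni-W cells. The family's 5 tested genes had a median log2 fold change of 0.63 in Ni-E and 1.04 in Ni-W cells, with APOL4 called lower in both and no gene called higher. No gene of the interferon-stimulated list was in the set, and of 44 tested 17 were called higher in Ni-E and 19 in Ni-W cells, with none lower.

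The metabolic enzymes QPRT and GLDC had 13.4% and 16.1% of UT left in Ni-W cells. QPRT, which makes a precursor of NAD from quinolinate, had 23.9 and 21.6 TPM in UT, 2.96 and 2.46 TPM in Ni-E and 2.62 and 2.61 TPM in Ni-W cells. GLDC, the glycine decarboxylase of the mitochondrial glycine cleavage system, had 17.6 and 9.92 TPM in UT, 2.29 and 1.84 TPM in Ni-E and 2.49 and 1.14 TPM in Ni-W cells. For both, the Ni-W and Ni-E levels overlapped, and the log2 fold changes of Ni-W over Ni-E were -0.07 ± 0.24 (SE) for QPRT and -0.29 ± 0.34 (SE) for GLDC, with n = 2 in each state.

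Of the calcium-binding proteins, S100A4, a small S100 protein linked to cell motility, was the most abundant gene of the set. It had 253 and 303 TPM in UT, 67.96 and 85.5 TPM in Ni-E and 56.8 and 83.7 TPM in Ni-W cells. The nickel states overlapped and lay far under UT. It overlaps S100A3 on the same strand, whose reads may not be fully separated from it. S100A8, a calgranulin subunit, had 19.6 and 22.1 TPM in UT, 5.98 and 2.71 TPM in Ni-E and 3.09 and 9.40 TPM in Ni-W cells. Its replicates moved in opposite directions between Ni-E and Ni-W. S100A4 and S100A8 lie 153 kb apart on chromosome 1, with 2 other genes of at least 2 TPM between them, which are not in the set. Of 14 S100 genes tested, none was called in either direction against UT, S100A4 and S100A8 included. PVALB, the calcium buffer parvalbumin, had 16.8 and 18.9 TPM in UT, 3.05 and 3.43 TPM in Ni-E and 5.10 and 6.25 TPM in Ni-W cells. It lies on chromosome 22, 596 kb from APOL4 with 7 genes of at least 2 TPM between them, none of them from the set.

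Among the signalling genes, PLEKHS1, a protein with a pleckstrin homology domain, had 17.1 and 14.04 TPM in UT, 0.69 and 0.66 TPM in Ni-E and 3.77 and 2.91 TPM in Ni-W cells. DAB1, an adaptor of reelin signalling, had 7.07 and 4.64 TPM in UT, 0.12 and 0.01 TPM in Ni-E and 0.92 and 0.56 TPM in Ni-W cells. RAP1GAP2, a GTPase-activating protein for RAP1, had 8.44 and 5.47, 0.90 and 0.62 and 3.92 and 2.02 TPM. DAB1 overlaps OMA1 on the same strand, which had 17.1 to 23.1 TPM in the 6 libraries. All 3 signalling genes were higher in both Ni-W than in both Ni-E libraries and under both UT libraries. KCNMB4, a regulatory subunit of calcium-activated potassium channels, was among the most abundant of the membrane proteins and stayed level, with 45.9% left in Ni-E and 45.9% in Ni-W cells. STEAP1, a membrane protein of the metalloreductase family, kept 27.4% and 42.1%.

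The most abundant noncoding RNA of the set was DANCR, a long noncoding RNA that hosts a small nucleolar RNA. It had 173 and 205 TPM in UT, 81.4 and 96.03 TPM in Ni-E and 79.8 and 96.8 TPM in Ni-W cells, and so was near the limit of the rule in each comparison. A few of the 64 rest on hardly any reads. SNORA7B, a small nucleolar RNA, ranks first by its ratios, with 14.5 and 7.39 TPM in UT and 0 in every nickel library. It is very short, and these levels are 1 estimated count in each UT library, under the limit of 3 counts that a count of 0 allows, so that no difference was detectable at this depth. SPINK4, a peptidase inhibitor of gut goblet cells, had 7 and 25 counts in UT cells and 0, 0, 0 and 1 in the nickel libraries, and it overlaps BAG1 on the opposite strand. HIST1H3F, one of many near-identical histone H3 genes whose reads may be shared, had 8 and 9 counts in UT and at most 3 in the nickel libraries. At the other end, 45 of the 64 had at least 10 counts in every library.

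The remaining genes are given by the range of their group. The group of secreted and mucosal proteins, WNT11 and MUCL1 included, kept 3.98% to 40.0% in Ni-E and 11.8% to 41.0% in Ni-W cells. The steroid, bile and lipid genes, with the esterase AADAC and the sphingolipid enzyme DEGS2, kept 14.2% to 43.1% and 22.2% to 49.4%. Channels, transporters and membrane proteins, with KCNH5, SLC35G2 and PTCHD1, kept 19.5% to 45.9% and 21.4% to 45.9%. Ni-W was lower than Ni-E in both replicates for none of these 6, beside 18.8% of all genes with at least 2 TPM. The 8 signalling and trafficking genes, with the kinase PRKCB, the decoy receptor IL1R2, MYRIP, NGEF and PLEKHB1, kept 7.35% to 48.7% and 19.7% to 47.5%. SMILR, LINC01224 and LINC01833 are the other long noncoding RNAs. The last 8 genes, MAN1C1, SLFN11, HIST1H3F, BAALC, RIPPLY3, KLHDC8B, TTC39A and ZNF826P, share no role and kept 13.5% to 41.2% and 22.7% to 41.8%.

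The genes nearest to the limit of the rule were NGEF, ESR1 and RAP1GAP2 inside it, with a highest ratio of 0.497, 0.497 and 0.494. Just outside were HPGD, LINC01637 and TP53I13, with 0.502, 0.507 and 0.508. HPGD, which inactivates prostaglandins, is far more abundant than most of the set, with 462 and 279 TPM in UT, 79.9 and 62.8 TPM in Ni-E and 232 and 108 TPM in Ni-W cells, and it missed the rule by its Ni-W ratio in replicate 1.

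The rule bounds Ni-E and Ni-W each against UT but not against each other, so Ni-W was also compared with Ni-E. The Ni-E and Ni-W values of these same libraries chose the genes, so the counts and medians of this comparison are a description, from which nothing is read. By TPM, 35 of the 64 were higher in Ni-W than in Ni-E cells in both replicates, beside 29.4% of all genes with at least 2 TPM in UT, 11 were lower in both, beside 18.8%, and 18 were split. Both Ni-W libraries lay above both Ni-E libraries for 30 of the 64, where 13.9% of all genes did so, and below them for 7, where 8.79% did. The 7 were APOD, BAALC, KLHDC8B, LXN, MAN1C1, MUCL1 and NGEF. MUCL1 rests on hardly any reads, with 1 and 5 counts in Ni-E and 0 and 1 in Ni-W cells, and was not tested by edgeR. The median log2 fold change of the 60 tested genes was 0.57, with 42 above 0 and 18 below, beside 0.02 for all 14502 genes. The 122 tested genes with low Ni-E ratios that are not in the set had a median of 0.96, with 122 above 0 and 0 below, and these are genes that had at least 1 Ni-W ratio above the limit of the rule.

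edgeR, with no block for the replicate numbers, called 0 of the 60 genes and 0.0% of all genes in either direction, with 22 of the 60 higher at an unadjusted p below 0.05 and none lower, beside 5.57% of all genes in either direction. DESeq2 called 9 of the genes higher and none lower: CXCL17, DAB1, FAM3B, HOPX, KRT20, KRT23, PLEKHS1, RAP1GAP2 and WFDC21P. Of all 19464 genes it called 89 higher and 50 lower. limma on log2(TPM + 1) called 0. PLEKHS1 had the lowest adjusted p of the 60 by edgeR, 0.124, with a log2 fold change of 2.22 ± 0.21 (SE), and its adjusted p ranged from 2.45e-08 to 1.00 over the alternatives. HOPX had 1.59 ± 0.19, KRT20 3.06 ± 0.42, CXCL17 2.10 ± 0.42 and KRT23 3.44 ± 0.39 as log2 fold change with SE, each higher in 2 of 2 replicates, with adjusted p of 0.158, 0.178, 0.310 and 0.148 by edgeR. Under the same test KRT13 had 0.17 ± 0.26, LXN -0.31 ± 0.28, S100A4 -0.13 ± 0.38 and DANCR -0.02 ± 0.32 as log2 fold change with SE.

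**Figure D3:**
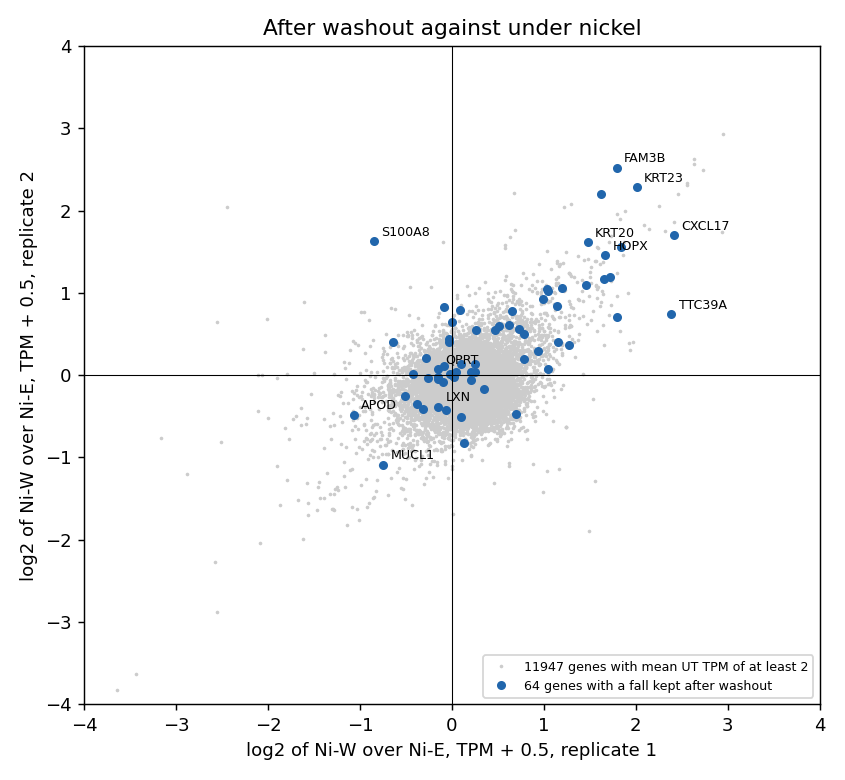
Log2 of Ni-W over Ni-E, each as TPM + 0.5, in replicate 1 against replicate 2. Blue points are the 64 genes and grey points all 11947 genes with at least 2 TPM in UT cells, of which 35 lie outside the axes. FAM3B, KRT23, KRT20, HOPX and CXCL17 are above 1 in both replicates, QPRT and LXN lie near 0, APOD and MUCL1 are below 0 in both, and S100A8 has opposite signs.

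Promoter sequences were looked at next, since the rule did not use them. RefSeq promoters on GRCh38.p14, from 250 bases before to 50 bases after the start of the gene, were matched by symbol for 48 of the 64. 6 motifs were searched on both strands. The E-box CACCTG, or CAGGTG on the other strand, a motif bound by ZEB and SNAI repressors among other factors, was in 17 of the 48 promoters (35.4%). It was in 18.4% of promoters of genes with at least 2 TPM in UT cells, in 20.6% of all promoters and in 23.5% of promoters of the 85 other genes with low Ni-E ratios that were matched. The upstream 250 bases are shown, 5′ to 3′ and with the E-box in capitals, for the 6 genes with the lowest ratios among the 13 that hold it wholly before the start. They are given to show where the motif lies.
CXCL17, chr19:42442947-42443196, minus strand: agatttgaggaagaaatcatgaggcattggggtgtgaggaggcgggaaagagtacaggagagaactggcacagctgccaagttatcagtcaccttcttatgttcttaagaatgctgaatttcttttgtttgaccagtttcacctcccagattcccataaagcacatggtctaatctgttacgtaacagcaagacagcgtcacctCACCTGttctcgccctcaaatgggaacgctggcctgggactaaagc
LXN, chr3:158672649-158672898, minus strand: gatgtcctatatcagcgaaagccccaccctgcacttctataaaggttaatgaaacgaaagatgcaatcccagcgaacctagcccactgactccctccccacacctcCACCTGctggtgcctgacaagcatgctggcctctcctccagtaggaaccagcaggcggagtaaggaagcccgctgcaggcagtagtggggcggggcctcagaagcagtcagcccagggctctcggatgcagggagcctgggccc
TTC39A, chr1:51345117-51345366, minus strand: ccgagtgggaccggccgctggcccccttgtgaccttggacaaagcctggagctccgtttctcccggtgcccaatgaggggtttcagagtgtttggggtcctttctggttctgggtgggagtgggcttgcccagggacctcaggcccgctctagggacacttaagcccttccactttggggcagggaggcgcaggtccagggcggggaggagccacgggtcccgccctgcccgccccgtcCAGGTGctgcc
S100A8, chr1:153391189-153391438, minus strand: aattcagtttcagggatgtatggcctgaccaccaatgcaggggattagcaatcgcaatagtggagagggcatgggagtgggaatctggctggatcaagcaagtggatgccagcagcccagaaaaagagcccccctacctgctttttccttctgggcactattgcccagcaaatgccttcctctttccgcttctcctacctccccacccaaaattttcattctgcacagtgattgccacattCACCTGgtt
LGALS4, chr19:38812946-38813195, minus strand: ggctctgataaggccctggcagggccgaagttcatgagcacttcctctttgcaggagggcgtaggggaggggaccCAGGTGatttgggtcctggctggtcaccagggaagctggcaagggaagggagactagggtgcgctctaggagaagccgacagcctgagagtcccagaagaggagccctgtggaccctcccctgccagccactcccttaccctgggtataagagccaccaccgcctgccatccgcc
S100A4, chr1:153545807-153546056, minus strand: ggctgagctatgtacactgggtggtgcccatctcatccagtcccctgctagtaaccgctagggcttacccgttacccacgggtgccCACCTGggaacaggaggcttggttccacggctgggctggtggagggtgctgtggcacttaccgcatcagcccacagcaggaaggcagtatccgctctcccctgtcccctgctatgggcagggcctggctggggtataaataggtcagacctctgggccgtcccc

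The motif begins 46 bases before the start in CXCL17, 144 before in LXN, 11 before in TTC39A, 9 before in S100A8, 175 before in LGALS4 and 164 before in S100A4. LXN also holds TATAAA 213 bases before its start, and S100A4 31 bases before its start. S100A8, which lies 153 kb from S100A4, also holds the E-box, at another distance from its start. Among these genes CXCL17, TTC39A and LGALS4 were higher in Ni-W than in Ni-E cells in both replicates. LXN and S100A4 were lower in both, with log2 fold changes of -0.31 ± 0.28 (SE) and -0.13 ± 0.38 (SE), and S100A8 was split. A relation of the motif to the course after washout was not tested. A match to these letters is no evidence of binding.

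The other motifs are given with their share of all promoters and then of promoters of genes with at least 2 TPM in UT cells. The interferon-stimulated response element (ISRE) was in 0 of the 48 promoters beside 3.65% and 2.56%, the gamma-activated site TTCNNNGAA in 6 (12.5%) beside 7.88% and 6.23%, and the hypoxia element core ACGTG in 8 (16.7%) beside 21.6% and 27.3%. The AP-1 site TGANTCA was in 4 (8.33%) beside 7.76% and 4.56%, and TATAAA in 6 (12.5%) beside 11.95% and 5.41%. The observed over expected CpG was below 0.5 in 23 of the 48 (47.9%), beside 12.5% of promoters of genes with at least 2 TPM in UT cells and 46.2% of all promoters. In the 85 other genes with low Ni-E ratios the share was 48.2%.

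H3K4me3 in BEAS-2B cells is a measure from another cell line and assay that did not enter the rule. The deposited values are RPKM over 2 kb on each side of the start, and 61 of the 64 genes were among the 26237 listed. Most of the promoters carried little of the mark in bronchial cells. In UT cells the median was 0.511 RPKM, beside 6.24 RPKM for the 11210 listed genes with at least 2 TPM in RT4 UT cells and 1.57 RPKM for all. Under 1 RPKM in all 3 libraries were 37 of the 61 (60.7%), beside 11.98% of those expressed genes, 46.2% of all and 47.4% of the 116 other genes with low Ni-E ratios. KRT13, QPRT, CXCL17 and LGALS4 had at most 0.393 RPKM. KRT20, KRT23, KRT33A and PVALB were listed at 0 in every library. Every other listed gene of the set had at least 8 reads in each library, the fewest for NGEF in Ni-W cells. Whether a 0 stands for an absent mark or for a promoter that was not measured was not tested. These genes are counted in all values given for the 61. The expressed genes are also more abundant in RT4 cells than the set, as given above. The part of abundance in the difference in H3K4me3 was not tested. The 24 genes with at least 1 RPKM in a library had medians of 27.7% and 37.2% of the UT transcript level left in Ni-E and in Ni-W RT4 cells, and the 37 without had 20.4% and 28.8%. The most marked were SLC35G2 with 9.88 RPKM and SLFN11, a helicase-like protein linked to DNA damage responses, with 9.64 RPKM in UT cells.

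**Figure D4:**
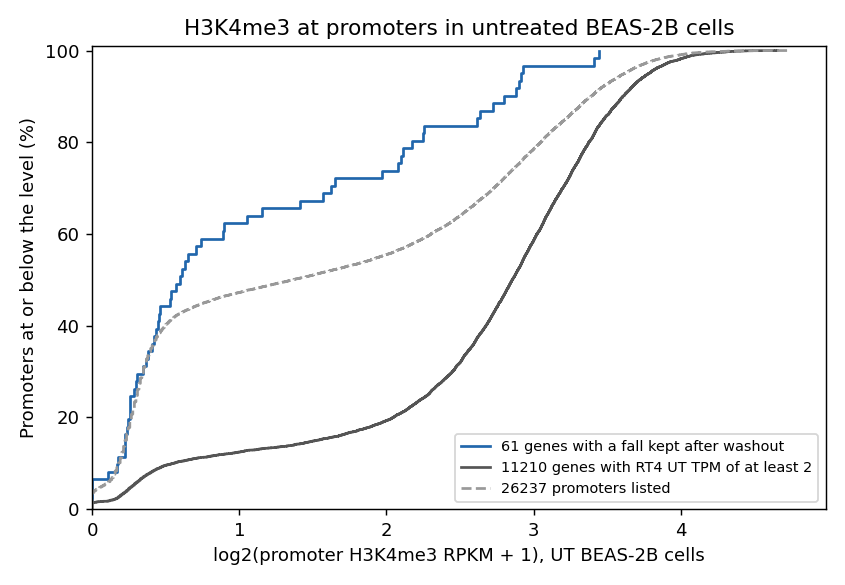
Cumulative share of promoters, in percent, at or below each H3K4me3 level in untreated BEAS-2B cells, as log2(RPKM + 1) with 1 library. The blue line is the 61 listed genes of the set, the dark line the 11210 genes with at least 2 TPM in RT4 UT cells and the dashed line all 26237 promoters. Of the set, 62.3% lie under 1 RPKM, beside 12.5% of the expressed genes. KRT20, KRT23, KRT33A and PVALB, which were listed at 0 in every library, are included.

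Changes of the mark were described by the study's chromatin dynamic score, the square root of the RPKM over the library's median in 1 condition minus that in another. With 1 library a condition there is no test, and intervals cover counting error only. The median score for Ni-E against UT was 0.01 over the 61 genes, beside 0.08 for the expressed genes and 0.05 for all promoters, and without median scaling it was below 0, at -0.0146, beside -0.0477 and -0.0168. For Ni-W against UT it was -0.00424, beside -0.188 and -0.0266. Without median scaling the last 3 values were -0.105, -0.582 and -0.193, so the level of all promoters depends on the scaling and changes are read relative to it.

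Past the 95% counting range of the score, 19 were lower and 13 higher in Ni-W than in UT cells (31.1% and 21.3%), beside 60.7% lower and 11.6% higher of the expressed genes and 36.3% lower and 19.9% higher of all promoters. In Ni-E against UT cells 6 were lower and 14 higher, where 3.43% and 39.6% of the expressed genes and 3.74% and 29.1% of all promoters were. Scores are ranked among genes that reached 1 RPKM in the UT or the Ni-W library. GLDC had the lowest score, -0.93, with 6.62 RPKM in UT (95% Wilson interval 6.17 to 7.11), 6.66 RPKM in Ni-E and 1.41 RPKM in Ni-W cells (1.21 to 1.64). WFDC21P followed with -0.60, at 3.22, 2.37 and 0.777 RPKM, and RARRES1 with -0.48, at 5.60, 4.52 and 2.23 RPKM in the same order of states. In all 3, the Ni-W library was lowest and the Ni-E library was closer to UT. The highest scores at that level were those of MYRIP, a myosin and RAB27-binding protein, with 0.55 at 0.572 RPKM in UT and 1.495 RPKM in Ni-W cells, of KCNH5, a voltage-gated potassium channel, with 0.29, and of SLFN11 with 0.21, while TTC39A, PTCHD1, NR0B1 and ABCB11, with scores of 0.36, 0.34, 0.27 and 0.24, lie under it. SLFN11 had 9.64 RPKM in UT and 8.11 RPKM in Ni-W cells, and its score is -0.26 without the median scaling. The transcript of MYRIP in RT4 cells was 5.98 and 3.39 TPM in UT, 1.56 and 1.11 TPM in Ni-E and 1.88 and 1.15 TPM in Ni-W cells. RT4 transcripts and BEAS-2B promoters come from different cell lines and different times after nickel, so these values stand side by side only.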

How the data were processed

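RNA-Seq of RT4 cells (2 replicates per state) and H3K4me3 ChIP-Seq of BEAS-2B cells (1 library per state) were used. ChIP inputs were not analysed here. For 28252 genes the authors deposited TPM, FPKM and the estimated counts of RSEM, and for 26237 genes the RPKM of the promoter, 2 kb on each side of the start. The paper names hg19 and the submitters' processing notes name GRCh38 for alignment, so positions were taken by symbol from GENCODE version 44 on GRCh38, and no deposited coordinate was used. Genes were chosen on the deposited TPM as described above, and the deposited FPKM served as an alternative. The genes and all lists were chosen with earlier results of these data known.

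The deposited estimated counts, about 98% of them whole numbers, were rounded and tested in 1 model of 3 groups by the quasi-likelihood test of edgeR, after filterByExpr and with TMM factors, and Benjamini-Hochberg adjustment over all 14502 genes tested. SE is the log2 fold change over the square root of the F statistic. Within a library all deposited RPKM values are multiples of 1 read's worth, from which reads and depths of 28385716 (UT), 37493942 (Ni-E) and 29933505 (Ni-W) were recovered, with 100% of values within rounding of whole reads. Intervals are 95% Wilson intervals of these reads, which carry no molecular identifiers, and 3 reads or counts were taken as the floor. Named were the 14 genes with the lowest ratios, the 6 most abundant, those on a fixed list or within 1 Mb of another, those next to the limit, and the 3 highest and 3 lowest scores above a level of 1 RPKM in Ni-W or UT. Others were named for their role after their values were seen. Of the fixed lists, 6 hold genes of the set and 21 hold none. Scripts were tested on simulated data. Tables and figures were made with matplotlib 3.10.9, pandas 2.3.3, numpy 2.4.6 and scipy 1.17.1 under Python 3.11.15. Models were fitted with DESeq2 1.42.0, edgeR 4.0.16 and limma 3.58.1 under R 4.3.3.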

Additional observations from a re-analysis of the deposited data

How the results depend on the processing

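The number of genes that met the rule was 43 to 77 with another pseudocount, another UT minimum, FPKM or TMM-scaled counts, 103 with ratios of group means, and 111 to 112 when only 1 replicate was used. Lower in Ni-E than in UT cells, edgeR called 33 of the 60 genes it tested, DESeq2 called 54 of 64, and the fits with 1 library left out called 0 to 35. Lower in Ni-W than in UT cells, edgeR called 12 of 60, DESeq2 called 42 of 64, and edgeR called 25 of 64 with no filter on low counts, 0 when only the 2 groups compared were fitted, and 0 to 2 with 1 library left out. In Ni-W against Ni-E, where edgeR called 0 higher, DESeq2 called 9 and edgeR with no filter 2, and leaving out 1 library gave 0 to 0. Of all 19464 genes, DESeq2 called 269 lower in Ni-E and 100 lower in Ni-W than in UT cells. It called 89 of them higher in Ni-W than in Ni-E cells. With no filter, edgeR called 31 of 19464 genes lower in Ni-W than in UT cells. It called 9 higher in Ni-W than in Ni-E cells. The cause of the differences between settings was not tested. None of the set was called lower in Ni-W than in Ni-E cells in any of these settings. Over those of the 14 fits that tested a gene, the sign of Ni-W over Ni-E was always above 0 for 32 of the 60 genes. It was always below 0 for 7 and mixed for 21. Not every fit tested all of them, and the one that asked for at least 10 counts in every library tested 45 genes of the set. HOPX ranged from 1.53 to 1.67, KRT20 from 2.58 to 3.57, CXCL17 from 1.72 to 2.72 and LXN from -0.57 to -0.05 in log2 fold change with 1 library left out. The replicate numbers come from a suffix in the titles, and only 2 pairs exist. Deviations of same-numbered libraries correlated at 0.657, 0.764 and 0.689 across 14502 genes. With the replicate block, 59 genes were lower in Ni-E than in UT, 59 lower in Ni-W than in UT, and 18 higher and 0 lower in Ni-W than in Ni-E cells. The block also called more of all 14502 genes, with 725 lower in Ni-E and 403 lower in Ni-W than in UT cells. Between Ni-W and Ni-E cells it called 394 of all genes higher and 261 lower in Ni-W. For H3K4me3, keeping only promoters of at least 1 RPKM left 24 genes, with a median UT level of 3.63 RPKM and a median Ni-W against UT score of -0.15. The Ni-E against UT median was below 0 under every alternative, from -0.0212 to -0.0124. Depth limits the lowest of the 64 genes, of which 45 had at least 10 counts in every library.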
